A study of Mus musculus with 15 samples.

Results

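The cytosolic ribosomal protein genes were taken from the read count table by symbol. Every gene whose symbol starts with Rpl or Rps and a number was taken, together with Rplp0, Rplp1, Rplp2 and Rpsa, and the Rps6k kinases and symbols ending in -ps were left out. The rule found 88 of 20453 genes. Of these, 46 encode proteins of the large ribosomal subunit and 31 proteins of the small subunit, and these 77 are called the subunit genes below. The other 11 are 9 paralogs or near-copies (Rpl3l, Rpl10l, Rpl22l1, Rpl32l, Rpl36al, Rpl39l, Rps23rg1, Rps27l and Rps27rt) and 2 genes whose symbols fit the pattern without naming a subunit protein (Rpl7l1 and Rps19bp1). A gene entered the tests if its counts passed a filter on low values, and 86 of the 88 did. Rpl10l and Rpl39l did not.

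A ribosome reads the mRNA with its small subunit and joins amino acids with its large one. Their mRNAs are among the most abundant in growing cells, and many start with a run of pyrimidines, the 5′ terminal oligopyrimidine tract, through which mTOR signalling controls their translation. In blood formation the dose of these proteins matters: loss of a single allele of several of them causes Diamond-Blackfan anaemia in humans, and granulocytes make fewer ribosomes as they mature.

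The libraries came from bone marrow of C57BL/6 mice. The study's mice carry cDNA of the human MLL-AF9 fusion, a driver of acute myeloid leukaemia, targeted with the A2Lox-cre system, and double heterozygous females were used. Lineage-positive cells (Cd5, Cd11b, B220, Gr-1 or Ter119) were removed with beads before sorting. The groups compared are LTearly (4 libraries), LTlate (3), BMTGMP (3) and wtGMP (4), and the first 3 are called the MLL-AF9 groups here. The labels describe gates for granulocyte-macrophage progenitors (GMP) and for long-term stem cells, but not which gate, age, time or treatment belongs to each group, so the names are used as given. For 1 further library the title and the table's column name give different groups, and it entered no comparison.

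Counts on named genes ran from 2469470 to 15093009 per library. Levels are given in CPM, a gene's count relative to the library total after TMM scaling. Each change is a log2 fold change with its standard error (SE), and a gene is called at a Benjamini-Hochberg adjusted p under 0.05 in edgeR's quasi-likelihood test over 14542 genes. The titles of the MLL-AF9 libraries end in codes that are not explained in the sources used here and may name animals or cohorts. Parts of these codes recur, within BMTGMP and between LTearly and LTlate, so some libraries may share an animal or cohort. The labels do not otherwise give the animal behind each library, so the p-values measure the spread between these samples, which may be technical. The groups also differed in other cell programmes. Of 18 late neutrophil genes tested, 18 were higher in LTearly, 17 in LTlate and 14 in BMTGMP against wtGMP. Their summed level was 13737 to 27028 CPM in LTearly, 6171 to 10281 CPM in LTlate, 1519 to 7860 CPM in BMTGMP and 67.4 to 170 CPM in wtGMP. The 10 genes listed here for the GMP gate are surface markers, among them Fcgr3, Ly6a and Il7r, and granule genes such as Elane and Prtn3. Together they summed to 1414 to 6623 CPM in LTearly and 1620 to 2023 CPM in LTlate. In BMTGMP their sum was 8118 to 11688 CPM and in wtGMP 19391 to 22702 CPM. The 10 genes did not all move the same way. Against wtGMP, 6 were called lower and 0 higher in LTearly, with log2 fold changes from -3.08 to 5.08. In LTlate 4 were lower and 2 higher, and in BMTGMP 1 and 0. The shares of all genes called lower were 8.93%, 3.25% and 2.17%, and of those called higher 11.1%, 7.53% and 4.41%. The summed markers of megakaryocytes, of erythroid cells and of B, T and NK lymphocytes stayed at or below 26.4 CPM in every library of the MLL-AF9 groups. Markers of eosinophils, basophils and mast cells summed to 8.57 to 41.8 CPM in LTearly, 94.0 to 312 CPM in LTlate and 6.98 to 10.1 CPM in BMTGMP, against 162 to 287 CPM in wtGMP. Those of monocytes and macrophages summed to 428 to 1128 CPM in LTearly, 599.9 to 692 CPM in LTlate and 192 to 425 CPM in BMTGMP, against 421 to 517 CPM in wtGMP. Dendritic cell markers summed to 72.2 to 201 CPM in LTearly, 119 to 164 CPM in LTlate and 39.2 to 98.1 CPM in BMTGMP, against 198 to 265 CPM in wtGMP. Stromal and endothelial markers summed to 59.2 to 84.1 CPM in LTearly, 93.6 to 191 CPM in LTlate and 30.7 to 81.3 CPM in BMTGMP, against 91.4 to 132 CPM in wtGMP. The part of any of these in the results below was not tested.

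As a share of all gene counts, the ribosomal protein genes came to 2.23%, 2.31%, 2.40% and 3.24% in LTearly replicates 1 to 4. In LTlate the share was 3.02%, 3.47% and 3.53%, in BMTGMP 3.56%, 4.14% and 2.62%, and in wtGMP 4.23%, 4.10%, 4.02% and 4.17%. Every LTearly and every LTlate library lay below every wtGMP library, while BMTGMP replicate 2 lay within the wtGMP range. The group means were 2.54 ± 0.469% in LTearly (SD, n = 4), 3.34 ± 0.281% in LTlate (n = 3), 3.44 ± 0.766% in BMTGMP (n = 3) and 4.13 ± 0.0923% in wtGMP (n = 4). In bulk RNA, fewer cells that express these genes strongly and less RNA of them per cell cannot be told apart.

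**Figure D1:**
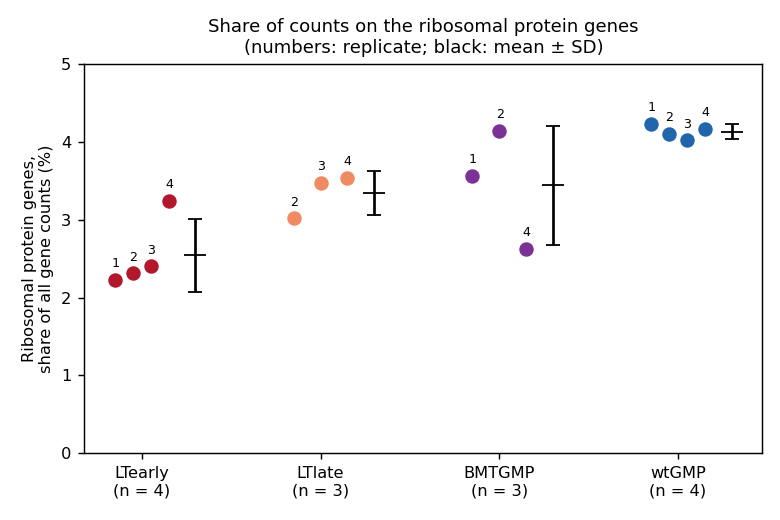
Share of all gene counts on the 88 ribosomal protein genes, in percent, per library. Points are libraries with their replicate number, and the black marks are the mean ± SD of the group. LTearly replicates 1 to 3 lie lowest, at 2.23% to 2.40%, and the 4 wtGMP libraries lie between 4.02% and 4.23%.

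LTearly against wtGMP gave the widest change. Of 86 ribosomal protein genes tested, 63 were called lower, against 8.93% of all genes. By edgeR 0 were called higher, where 11.1% of all genes were; at an unadjusted p under 0.05 the count of higher members was 0, and DESeq2 gave 0 as well. The median of the 86 log2 fold changes was -0.70, which is 61.6% of the wtGMP level, and the median of all genes tested was 0.22. The change was broad within the family: 85 of the 86 values were negative, 37 of 46 large subunit genes and 23 of 31 small subunit genes were called, and the medians of the subunits were -0.69 and -0.70. Of the 88 members, 64 had every LTearly library below every wtGMP library, against 10.3% of all genes. In the same comparison all 18 late neutrophil genes were called higher. Of the 10 surface and granule genes listed for the GMP gate, 6 were called lower and 4 were not called. Their part in the fall of the ribosomal protein genes was not tested.

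**Figure D2:**
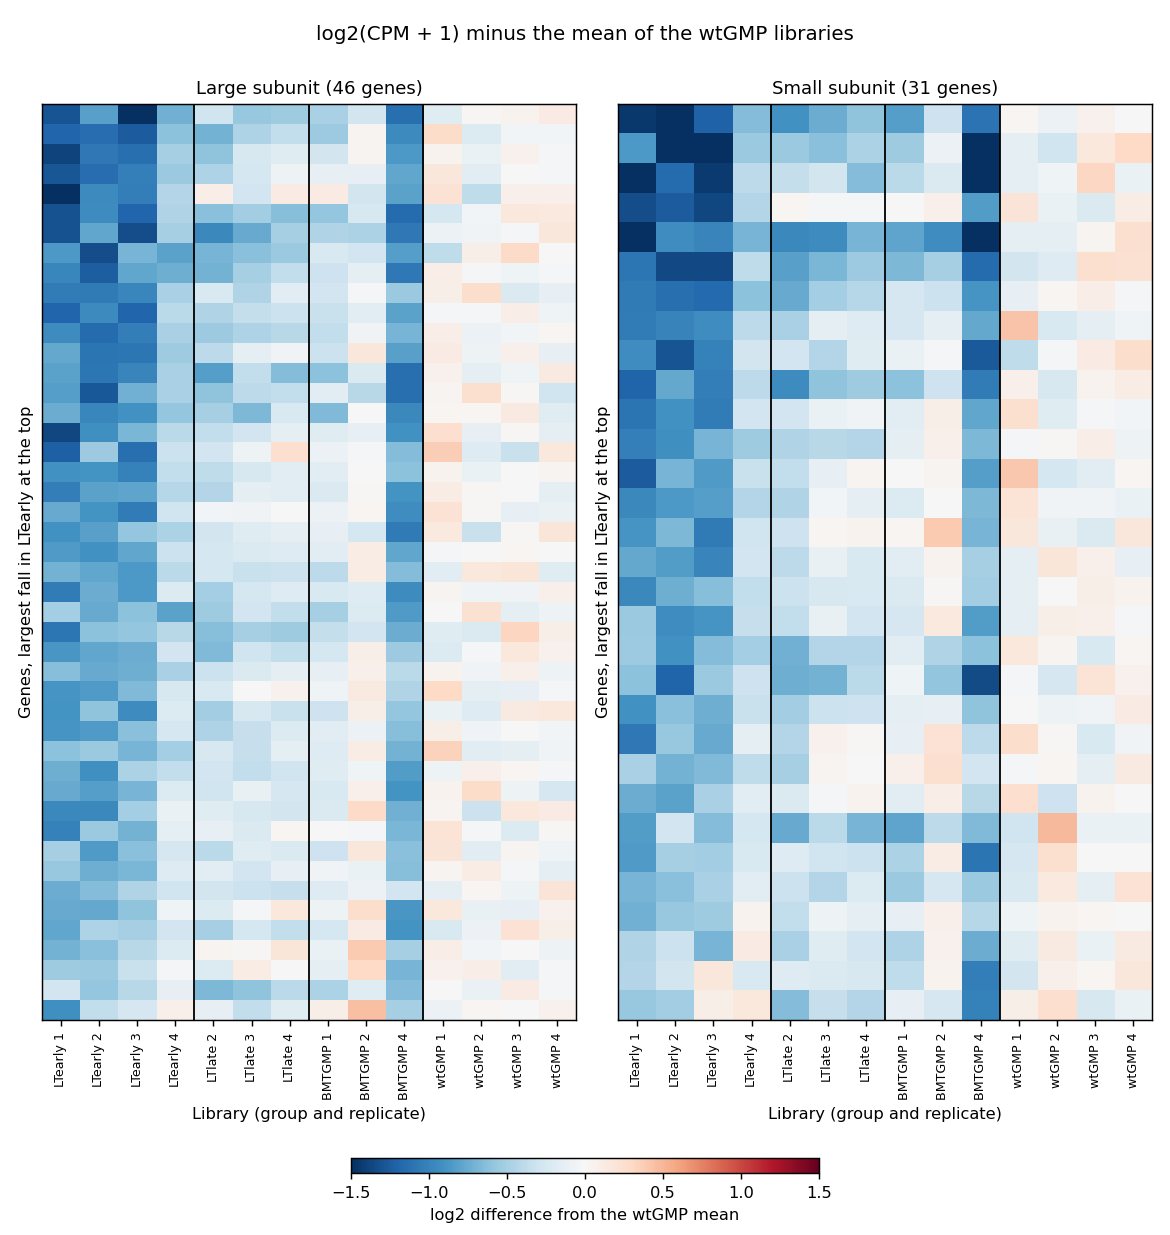
log2(CPM + 1) of the 77 subunit genes minus the mean of the wtGMP libraries, per library, 1 row per gene, ordered within each subunit by the LTearly fold change with the largest fall at the top. Blue is below and red above the wtGMP mean. LTearly replicates 1 to 3 and BMTGMP replicate 4 are blue in nearly every row, while BMTGMP replicate 2 is close to the wtGMP libraries.

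The largest falls in LTearly among the subunit genes were those of Rps12, Rps21, Rpl28, Rps16 and Rps26. Rps12, a protein of the small subunit, had 36.5, 34.4, 43.3 and 64.2 CPM in LTearly, against 104, 95.7, 106 and 101 CPM in wtGMP. All 4 LTearly libraries lay below the lowest wtGMP library, and replicate 4 was the highest of them. The log2 fold change was -1.18 ± 0.24 (adjusted p = 0.000632). Rps21 fell by 1.11 ± 0.28 on the log2 scale (adjusted p = 0.00481), Rpl28, a large subunit protein, by 1.09 ± 0.24 (adjusted p = 0.00148) and Rps16 by 1.06 ± 0.26 (adjusted p = 0.0046). Rps26, which lines the channel where mRNA leaves the small subunit and is a Diamond-Blackfan gene, had 149.8, 159, 147 and 278 CPM in LTearly, against 436, 355, 326 and 411 CPM in wtGMP. It fell by 1.05 ± 0.21 (adjusted p = 0.000494).

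At the other end of the family stood Rps27, Rps9, Rps27a, Rpl37a, Rpl9 and Rpl17, which were not called in LTearly. Rps27, a zinc finger protein of the small subunit, had 33.5, 34.9, 53.6 and 56.5 CPM in LTearly, against 53.5, 60.2, 42.6 and 46.9 CPM in wtGMP. The groups overlapped, and the difference was -0.18 ± 0.28 (adjusted p = 0.711). Rps9, a small subunit protein that takes part in decoding accuracy, had 689, 771, 1054 and 800.3 CPM in LTearly and 771, 986, 958 and 1055 CPM in wtGMP, also with overlap (-0.19 ± 0.18, adjusted p = 0.53). For Rps27a, which is made as a fusion with ubiquitin, the difference was -0.31 ± 0.21 (adjusted p = 0.324). Rpl9 did not overlap: it had 57.0 to 78.3 CPM in LTearly and 79.9 to 93.2 CPM in wtGMP (-0.35 ± 0.21, adjusted p = 0.26). Every LTlate and BMTGMP library also lay below every wtGMP library in Rpl9 (-0.57 and -0.43), without a call (adjusted p = 0.118 and 0.303). These genes were singled out after their values were seen, as the smallest of the 77 differences.

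Known roles group the other members named by rule. The stalk proteins Rplp0, Rplp1 and Rplp2, which recruit the translation factors with GTPase activity, all fell in LTearly, by 0.75 ± 0.17 (adjusted p = 0.002), 0.83 ± 0.21 (adjusted p = 0.00567) and 0.53 ± 0.14 (adjusted p = 0.00637). Rplp2 also varied least over the libraries of all subunit genes, with a coefficient of variation of 16.9%, and had 799, 850.4, 974 and 1083 CPM in LTearly, against 1210 to 1522 CPM in wtGMP. Rpl5 and Rpl11, which bind the 5S rRNA and, when free, the p53 regulator Mdm2, fell by 0.68 ± 0.18 (adjusted p = 0.0059) and 0.68 ± 0.20 (adjusted p = 0.0162). Rpl3, at the peptidyl transferase centre, fell by 0.90 ± 0.17 (adjusted p = 0.000296), and Rpl7 by 0.63 ± 0.16 (adjusted p = 0.0048). Rps6, the classical substrate of the S6 kinases, had 251 ± 43.2 CPM in LTearly (SD, n = 4), against 427 ± 43.8 CPM in wtGMP (n = 4), and fell by 0.77 ± 0.17 (adjusted p = 0.0016). Rpsa, also known as the laminin receptor, fell by 0.55 ± 0.17 (adjusted p = 0.0228).

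Rps14 and Rps19 were not called in LTearly. Rps14, whose loss contributes to the human 5q- syndrome, averaged 94.0 ± 18.0 CPM in LTearly and 135 ± 34.8 CPM in wtGMP (-0.52 ± 0.21, adjusted p = 0.0799). Rps19, the first Diamond-Blackfan gene known, averaged 134 ± 23.3 CPM in LTearly and 188 ± 28.1 CPM in wtGMP (-0.49 ± 0.18, adjusted p = 0.0542). Of the 19 Diamond-Blackfan genes listed, 13 were called lower in LTearly and 6 were not called, with a median of -0.66. That count stood against 8.93% of all genes and 63 of 86 for the whole family. Among them Rpl15 fell by 0.93 ± 0.21 (adjusted p = 0.00152). Of the X-linked members named, Rpl36a (-1.04 ± 0.19, adjusted p = 0.000231), Rpl39 (-0.79 ± 0.22, adjusted p = 0.00921) and Rps4x (-0.77 ± 0.21, adjusted p = 0.00795) fell. Rpl10, a late-joining protein of the large subunit, did not pass the test (-0.53 ± 0.20, adjusted p = 0.0587).

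Leaving out single libraries was followed gene by gene for the members named by rule. Of 25 members named by rule and called there, 21 were called with each library of the comparison left out in turn. The exceptions were Rpsa, Rpl11, Rpl39 and Rps4x. Rpsa had an adjusted p of 0.0901 without wtGMP replicate 1, 0.0556 without wtGMP replicate 3, 0.0551 without LTearly replicate 1 and 0.0796 without LTearly replicate 2. Rpl11 had 0.0797 without wtGMP replicate 3 and 0.0514 without LTearly replicate 1, and without wtGMP replicate 1 the adjusted p was 0.0541 for Rpl39 and 0.0518 for Rps4x. LTearly replicate 4 stood apart from the other LTearly libraries. It was the highest of the 4 in 74 of the 77 subunit genes, and its median difference from the wtGMP mean, on log2(CPM + 1), was -0.37, against -0.89, -0.84 and -0.76 in replicates 1, 2 and 3. The same library had the lowest late neutrophil sum of LTearly (13737 CPM) and the highest sum of the genes listed for the GMP gate (6623 CPM). The late neutrophil sums of replicates 1, 2 and 3 were 18557, 26299 and 27028 CPM. Replicate 4 also had the most counts on named genes, 8695136, against 2695917 to 4006231 in the others. The part of any of these in its ribosomal protein levels was not tested. Without LTearly replicate 4, 74 members were called lower. Rps14 (adjusted p = 0.0433), Rps19 (adjusted p = 0.0129), Rpl10 (adjusted p = 0.0157) and Rps24 (adjusted p = 0.00239) were then called, and Rps19 also without wtGMP replicate 1 (adjusted p = 0.0431).

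LTlate and BMTGMP differed from wtGMP in the same direction by less. In LTlate 4 members were called lower, against 3.25% of all genes, with a median of -0.32 against 0.00 for all genes tested. Of its 86 values, 84 were negative and 24 had an unadjusted p under 0.05. Among all 14542 genes tested, 7184 values were negative and 3499 genes had an unadjusted p under 0.05 in either direction. In BMTGMP 2 members were called lower, against 2.17% of all genes, with a median of -0.31 against 0.07. There 84 values were negative and 20 had an unadjusted p under 0.05, against 6678 negative values and 2833 such genes in either direction among all 14542. Both counts of lower calls lay near the shares of all genes, so these counts alone give no result about the family. In both comparisons edgeR called 0 members higher, at an unadjusted p under 0.05 as well, and DESeq2 called 0, while 7.53% of all genes in LTlate and 4.41% in BMTGMP were called higher. Every LTlate library lay below every wtGMP library in 51 of the 88 members, against 10.9% of all genes. For BMTGMP the count was 20, against 8.31% of all genes.

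**Figure D3:**
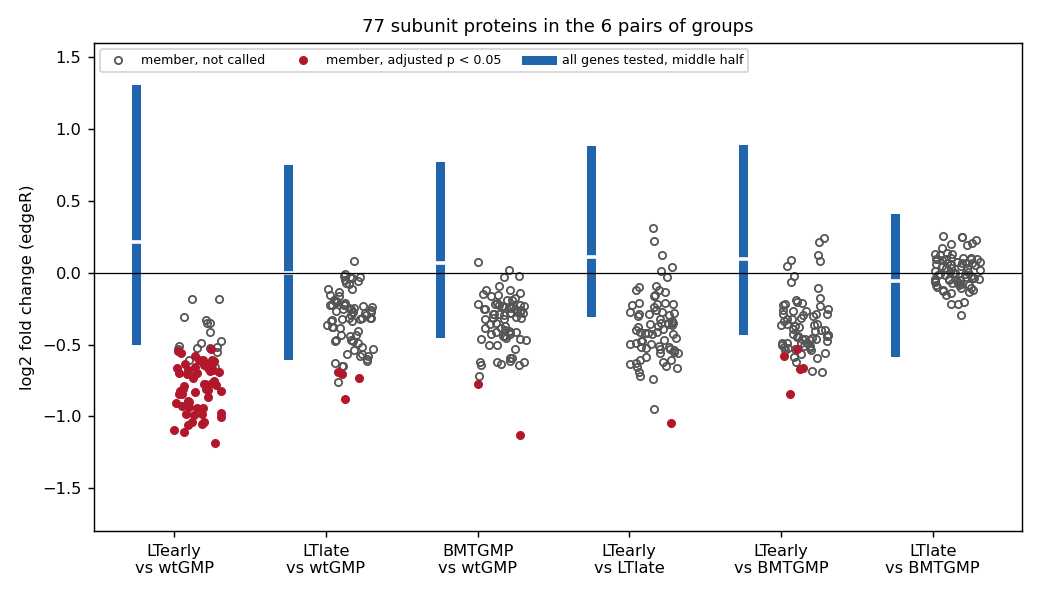
log2 fold change of the 77 subunit genes in the 6 pairs of groups, filled where the adjusted p was under 0.05. The blue bar spans the 25th to 75th percentile of all genes tested and the white mark is their median. In LTearly against wtGMP all 77 points lie below 0, and in LTlate against BMTGMP they lie around 0.

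Rps20, a protein of the head of the small subunit, was called lower in all 3 MLL-AF9 groups. Rps20 had 97.9, 164, 156 and 192 CPM in LTearly, 159, 162 and 193 CPM in LTlate, 179.8, 163 and 87.6 CPM in BMTGMP, and 284, 284, 321 and 369 CPM in wtGMP. Every library of the MLL-AF9 groups lay below every wtGMP library. It fell by 1.04 ± 0.21 in LTearly (adjusted p = 0.000636), 0.88 ± 0.23 in LTlate (adjusted p = 0.0112) and 1.13 ± 0.23 in BMTGMP (adjusted p = 0.00195).

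Rps3, which guides mRNA into the small subunit, and Rpl22 were called in LTearly and LTlate. Rps3 averaged 382 ± 96.7 CPM in LTearly, 419 ± 60.7 CPM in LTlate, 435 ± 108 CPM in BMTGMP and 676 ± 71.1 CPM in wtGMP, and fell by 0.83 ± 0.18 in LTearly (adjusted p = 0.00143) and 0.69 ± 0.20 in LTlate (adjusted p = 0.021). Its value in BMTGMP was -0.64 ± 0.20 (adjusted p = 0.0505). Rpl22 averaged 282 ± 81.2, 326 ± 53.3 and 346 ± 77.8 CPM in LTearly, LTlate and BMTGMP, against 541 ± 43.8 CPM in wtGMP. It fell by 0.94 ± 0.19 in LTearly (adjusted p = 0.000544) and 0.73 ± 0.20 in LTlate (adjusted p = 0.0179), with -0.64 ± 0.20 in BMTGMP (adjusted p = 0.0561).

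The small counts of calls in these groups depended on single libraries. Of the 4 members called in LTlate, 0 were called by edgeR in every fit with 1 library left out. The count of 4 was 0 without LTlate replicate 2 or 3, 1 without wtGMP replicate 4 and 2 without wtGMP replicate 3. Of the 2 called in BMTGMP, Rps20 was called in each such fit. The count for BMTGMP was 1 without wtGMP replicate 3, wtGMP replicate 4, BMTGMP replicate 1 or BMTGMP replicate 4, and 5 without BMTGMP replicate 2. BMTGMP replicate 4 was the lowest of its group in 75 of the 77 subunit genes and below every wtGMP library in 77, and replicate 2 was the highest in 65. The median differences from the wtGMP mean, on log2(CPM + 1), were -0.22, -0.01 and -0.78 in BMTGMP replicates 1, 2 and 4. The fitted median over the members was -0.09 without replicate 4 and -0.52 without replicate 2. The late neutrophil sums of the 3 libraries were 1519, 7860 and 3156 CPM, in replicates 1, 2 and 4, and their part in these differences was not tested. The last part of the title code was the same in BMTGMP replicates 1 and 2 and another in replicate 4, and its part was not tested either. In LTlate the medians were -0.40, -0.28 and -0.23 in replicates 2, 3 and 4.

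**Figure D4:**
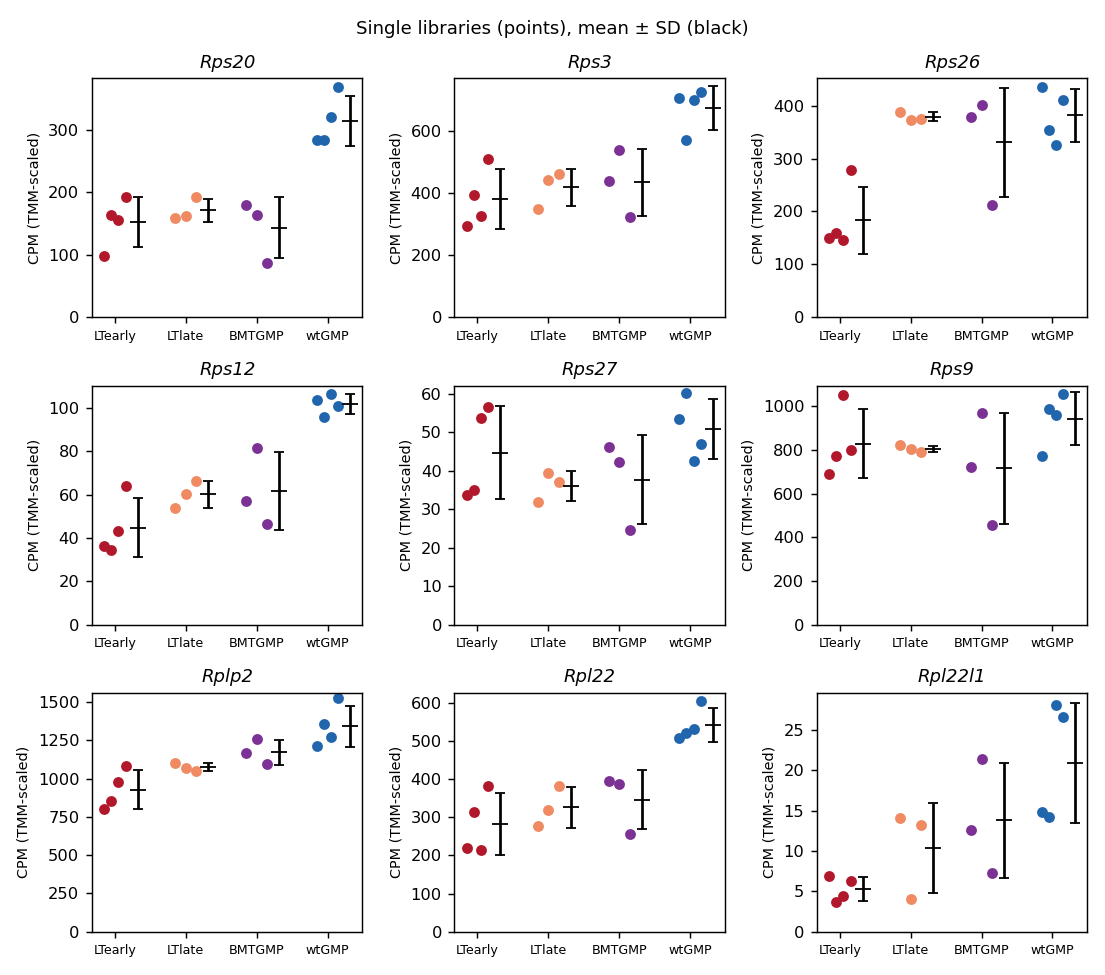
CPM of 9 members per library, with the mean ± SD of each group in black and every vertical axis starting at 0. Rps20, Rps3 and Rpl22 have all MLL-AF9 libraries below the wtGMP libraries, Rps26 is low in LTearly and in BMTGMP replicate 4, and Rps27 and Rps9 overlap between groups.

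The MLL-AF9 groups were also set against each other. LTearly against LTlate gave 1 call, Rps26, where 0.0894% of all genes were called lower. Rps26 had 389, 373 and 375 CPM in LTlate, all above the highest LTearly library at 278 CPM, and its difference was -1.04 ± 0.22 (adjusted p = 0.0388). The median over the members was -0.37, against 0.11 for all genes. An unadjusted p under 0.05 was found for 32 of 86 members, against 1728 of all 14542 genes tested. The Rps26 call was lost when any single library other than LTearly replicate 4 was left out, with an adjusted p from 0.0818 to 0.12. Without LTearly replicate 4, 12 members were called lower, among them Rpl3 (-0.77, adjusted p = 0.0165), Rpl39 (-0.96, adjusted p = 0.0355) and Rps6 (-0.73, adjusted p = 0.0436).

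LTearly against BMTGMP gave 6 calls, all lower, where 2.81% of all genes were called lower. They were Rps26 (-0.85 ± 0.22, adjusted p = 0.0199), Rpl7l1 (-0.72 ± 0.20, adjusted p = 0.0281), Rpl10a (-0.67 ± 0.20, adjusted p = 0.0413), Rpl12 (-0.67 ± 0.20, adjusted p = 0.0414), Rps15 (-0.58 ± 0.17, adjusted p = 0.0439) and Rpl4 (-0.53 ± 0.16, adjusted p = 0.0449). Rpl7l1 had 67.6, 68.8, 57.6 and 66.4 CPM in LTearly and 102, 118 and 104 CPM in BMTGMP, with no overlap. Rpl4, a large subunit protein that lines the exit tunnel for the new chain, had 3973, 4021, 3711 and 5772 CPM in LTearly and 6693, 7413 and 4874 CPM in BMTGMP, where LTearly replicate 4 lay above BMTGMP replicate 4. The median over the members was -0.40, against 0.10 for all genes. The count of 6 was 27 without LTearly replicate 4 and 25 without BMTGMP replicate 4, but 2 without LTearly replicate 1, 1 without LTearly replicate 2, and 0 without LTearly replicate 3, BMTGMP replicate 1 or BMTGMP replicate 2. LTlate against BMTGMP gave 0 calls by edgeR, where 0.461% of all genes were called lower, and 0 calls by DESeq2. An unadjusted p under 0.05 was found for 1 member, against 1745 of all 14542 genes tested. The median was 0.00 and 42 of 86 values were negative. LTearly, LTlate and BMTGMP samples are shared between these comparisons, and wtGMP samples between those against wtGMP. The values of one comparison are thus not independent of those of another.

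For the mean of the 3 MLL-AF9 groups against wtGMP (10 libraries against 4), 41 members were called lower and, by edgeR and DESeq2, 0 higher (0 at an unadjusted p under 0.05), against 7.58% of all genes called lower. The median was -0.43, against 0.05 for all genes. Rps20 had the smallest adjusted p among the members named (-1.02 ± 0.17, adjusted p = 7.66e-05), and Rps14 was called here (-0.60 ± 0.17, adjusted p = 0.0134) though in no single group. Rps14 lost that call without wtGMP replicate 2 (adjusted p = 0.142), which at 186 CPM stood above the other wtGMP libraries at 108 to 124 CPM. The count of 41 was 26 without wtGMP replicate 1, 22 without wtGMP replicate 3, 25 without wtGMP replicate 4, 26 without LTlate replicate 2 and 23 without BMTGMP replicate 4.

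Among the paralogs, Rpl22l1 had the largest fall of the whole family. Rpl22l1 encodes a close relative of Rpl22 and in mouse its mRNA is held down by Rpl22 protein. It had 6.85, 3.73, 4.405 and 6.33 CPM in LTearly, 14.0, 4.01 and 13.2 CPM in LTlate, 12.7, 21.4 and 7.33 CPM in BMTGMP, and 14.8, 14.2, 28.0 and 26.6 CPM in wtGMP. LTearly and LTlate lay below wtGMP without overlap, LTlate by a narrow margin, and BMTGMP overlapped it. The test did not call LTlate (-1.0 ± 0.57, adjusted p = 0.283) or BMTGMP (-0.59 ± 0.56, adjusted p = 0.642). The fall in LTearly was 1.96 ± 0.54 (adjusted p = 0.00966), and it was called with each library left out. Both genes of this pair thus fell in LTearly. Rps27l, a p53 target in human cells, averaged 23.9 ± 7.0 CPM in LTearly and 45.6 ± 15.8 CPM in wtGMP without passing the test (-0.93 ± 0.41, adjusted p = 0.107). Rpl36al, a close copy of Rpl36a, was at -0.47 ± 0.24 (adjusted p = 0.167).

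Rpl3l, the form of Rpl3 found in striated muscle, was seen at a few reads. It had 12, 0, 31 and 31 reads in LTearly, 54, 41 and 86 in LTlate, 0, 5 and 0 in BMTGMP, and 0, 3, 0 and 0 in wtGMP. It was not called in LTearly (adjusted p = 0.167), except without wtGMP replicate 2, where the adjusted p was 0.0479. Rpl39l, a testis form, had 31 reads in LTlate replicate 2 and 0 in the other 13 libraries compared. Rpl10l, also a testis form, had 4 reads in LTearly replicate 3, 2 in wtGMP replicate 2 and 0 in the others.

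Many ribosomal protein genes have processed pseudogenes, and the deposited counts divide a read with several hits among its places, so a value can hold only part of a gene's reads. Fractions show where this happened: 60 of the 88 members had a fractional count in every library compared. Rps27 and Rps27rt had equal counts in 13 of 14 libraries, so their reads cannot be told apart. Rps23rg1 held 0.648 to 0.721 times the count of Rps23, and Rpl32l 0.0521 to 0.0802 times that of Rpl32. Among the 10 subunit genes with whole counts in at least 20% of libraries, 9 were called lower in LTearly with a median of -0.88. Among the other 67, 51 were called, with a median of -0.68. In LTlate all 4 calls and in BMTGMP both calls were among those 10 genes, with medians of -0.59 and -0.62, against -0.30 and -0.29 for the other 67.

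The start of each gene was read from RefSeq promoter sequences (GRCm38.p6, 20 bases before to 30 from the annotated start). Below, of the subunit genes with a promoter entry, are the 3 that fell most in LTearly and the 3 with the smallest differences, to show that a pyrimidine tract of at least 8 bases, in capitals, was present in some and missing in others of both kinds.
Rps12: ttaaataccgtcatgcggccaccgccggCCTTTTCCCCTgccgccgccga
Rpl28: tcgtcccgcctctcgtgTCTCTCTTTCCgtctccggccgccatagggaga
Rps21: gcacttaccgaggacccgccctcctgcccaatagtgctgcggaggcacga
Rps27: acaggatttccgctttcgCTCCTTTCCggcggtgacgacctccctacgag
Rps9: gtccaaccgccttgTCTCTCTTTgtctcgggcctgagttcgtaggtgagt
Rpl37a: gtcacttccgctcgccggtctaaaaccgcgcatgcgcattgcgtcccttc

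The windows lie at chr10:23787180-23787229 (minus strand) for Rps12, chr7:4792945-4792994 (plus) for Rpl28, chr2:180257359-180257408 (plus) for Rps21, chr3:90213619-90213668 (minus) for Rps27, chr7:3704021-3704070 (plus) for Rps9 and chr1:72711240-72711289 (plus) for Rpl37a. Each spans the start of the first exon. A start site set a few bases off would move a tract in or out of the window. For a gene with several entries, an entry holding a tract was shown if there was any, and the first entry otherwise. The Rpl37a window ends within a run of C and T, so a tract may reach past its edge.

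A promoter entry was found for 57 of the 77 subunit genes and for 11651 of the genes tested. A gene with several entries was counted as holding a tract or motif if any of its entries did. On the coding strand, 32 of the 57 (56.1%) held a tract of at least 8 C or T in the 50-base window, against 21.9% of all genes. The median LTearly fold change was -0.68 in the 32 genes with such a tract and -0.72 in the 25 without. Over 300 bases of promoter (250 before to 50 after the start, both strands), CCGGAAG, the core bound by ETS factors, was in 42.1% of the members and 17.5% of all genes. AAGATGGC, the core of YY1 sites, was in 8.77% and 4.66%. GGGCGGGG, a GC box, was in 29.8% and 33.3%, and CACGTG, the E-box bound by MYC, in 10.5% and 10.7%. A further motif searched, a palindrome of 10 bases with CGCG at its centre, was in 10.5% and 1.01%. The LTearly median was -0.68 with and -0.72 without the ETS core, -0.66 with and -0.69 without the YY1 core, -0.72 with and -0.68 without the GC box, -0.64 with and -0.70 without the E-box, and -0.71 with and -0.69 without the palindrome.

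Other genes of translation were taken from lists. Rack1, a small subunit protein outside the naming pattern, fell in LTearly (264 ± 83.6 CPM, against 448 ± 21.2 CPM in wtGMP; -0.76 ± 0.19, adjusted p = 0.00434). Fau, which encodes a ubiquitin-like protein fused to a small subunit protein, did not follow: it had 504 ± 60.4 CPM in LTearly and 451 ± 51.8 CPM in wtGMP (0.16 ± 0.15, adjusted p = 0.521).

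Of 13 elongation and termination factors and other mRNAs listed for a terminal pyrimidine tract, 10 were called lower in LTearly, 4 in LTlate and 3 in BMTGMP, where the shares of all genes called lower were 8.93%, 3.25% and 2.17%. Eef1g, a subunit of the complex that reloads eEF1A, fell in all 3 groups, by 1.55 ± 0.18 in LTearly (adjusted p = 4.63e-07), 1.30 ± 0.20 in LTlate (adjusted p = 3.89e-05) and 1.02 ± 0.20 in BMTGMP (adjusted p = 0.000946). Npm1, the nucleolar chaperone of ribosome assembly, fell by 1.65 ± 0.17 in LTearly (adjusted p = 5.55e-08). Of 36 initiation factors, 18 were called lower and 1 higher in LTearly, against 8.93% and 11.1% of all genes. In LTlate 3 were lower and 1 higher (3.25% and 7.53% of all genes), and in BMTGMP 1 and 1 (2.17% and 4.41%), which is close to or below the shares of all genes in BMTGMP. Eif4a1, the helicase of the cap-binding complex, fell by 0.78 ± 0.16 in LTearly (adjusted p = 0.000777), while Eif4g3, a scaffold of the same complex, was higher in all 3 groups: 428 ± 32.5 CPM in LTearly, 534 ± 78.6 CPM in LTlate and 520.4 ± 129 CPM in BMTGMP, against 261 ± 31.1 CPM in wtGMP. Its log2 fold changes were 0.71 ± 0.16 (adjusted p = 0.00211), 1.03 ± 0.17 (adjusted p = 0.000155) and 0.996 ± 0.17 (adjusted p = 0.000333).

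**Figure D5:**
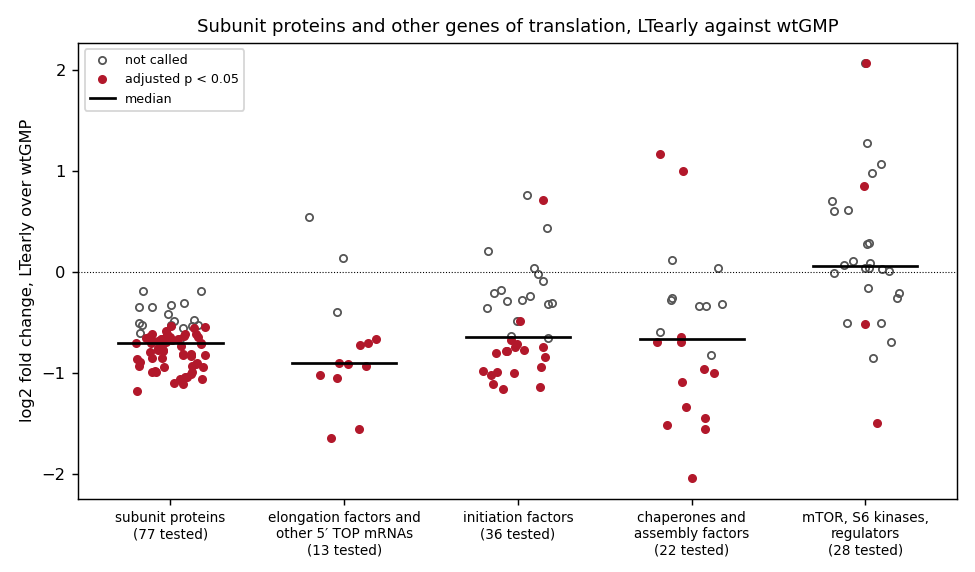
log2 fold change of LTearly over wtGMP for the 77 subunit genes and for 4 lists of other translation genes, filled where the adjusted p was under 0.05, with the median as a line. The medians are -0.70 for the subunit genes, -0.90 for elongation factors and other mRNAs with a pyrimidine tract, -0.64 for initiation factors, -0.67 for assembly factors and 0.06 for mTOR and its regulators.

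Of 22 chaperones and assembly factors of ribosomal proteins, 11 were called lower and 2 higher in LTearly, and 3 lower and 1 higher in LTlate. The higher counts were below the shares of all genes called higher, 11.1% in LTearly and 7.53% in LTlate, and the lower counts stood against 8.93% and 3.25%. In BMTGMP 0 were called lower and 0 higher, against 2.17% and 4.41% of all genes. Eif6 is also among the initiation factors listed, and Rps19bp1 among the 88 members. Bccip, a chaperone of Rpl23, fell by 1.44 ± 0.20 in LTearly (adjusted p = 7.61e-06). Riok3, a kinase linked to maturation of the small subunit, was higher in LTearly (328 ± 42.1 CPM, against 145 ± 28.0 CPM in wtGMP; 1.17 ± 0.19, adjusted p = 5.34e-05). Of 28 genes of the mTOR list tested, 2 were lower and 2 higher in LTearly, below the shares of all genes (8.93% and 11.1%), with a median of 0.06, so the counts give no result about that list. As single genes, Mlst8, a subunit of both mTOR complexes, was higher (2.07 ± 0.45, adjusted p = 0.00124), and Larp1, which binds the cap and tract of these mRNAs, was lower (-0.52 ± 0.15, adjusted p = 0.0106). The part of the late neutrophil genes in these values was not tested.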

How the data were processed

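RNA from sorted mouse bone marrow cells was made into libraries with the low-input ScriptSeq Complete Kit and sequenced, per the labels' protocols. Whether counting used strand is not given in the sources used here. The authors deposited 1 table of expected counts for 28847 RefSeq transcripts. Per the file headers, reads were placed on mm9 with up to 100 hits per read, and a read with several hits is divided, so 13.7% of the values are not whole (tolerance 1e-06). The submitters' processing notes list Bowtie 0.9.9.1, and the counting tool is not given in the sources used here. Dividing reads between a gene and its pseudogenes can lower or blend the values of ribosomal protein genes.

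Of the transcripts, 26092 were matched to a symbol, 25977 through RefSeq annotation and 115 through GENCODE, both on another build. The others held 3.51% to 4.16% of each library's counts. For each of 20453 genes the most abundant transcript stood for the gene, and its counts were rounded. Of 16 columns, 1 matched no sample and was not used, and 1 library with conflicting labels was left out of every comparison. Among 91 pairs of libraries, 0 were identical.

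edgeR 4.0.16 (R 4.3.3) was fitted to 14 libraries with a mean per group, TMM scaling, filterByExpr (14542 genes) and the robust quasi-likelihood test, 2-sided, for 7 contrasts. The biological coefficient of variation had a median of 0.221 over the members and 0.510 over all genes. SE was obtained by dividing the log2 fold change by the root of the F statistic. Replicate numbers are shared between groups, but deviations of the 18 same-numbered pairs correlated at -0.16 to 0.11, so they were not used as pairs. The parts of the title codes that recur between libraries were not examined in this way and did not enter the fit. The code was tested on simulated data.

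The members and lists were chosen with earlier results of these data known. Members named with values are, per comparison with wtGMP, the 6 called with the largest fall and rise at 5 CPM or more, a set list of 25 symbols (1 of them, Rps4l, not analysed here), and the 3 with the lowest and highest variation; of each list, up to 4 genes with the smallest pooled p. Any other was named after its values were seen, and a few genes that the rule names are not reported here. Errors of levels and shares are SDs over libraries. Alternatives were DESeq2 1.42.0, median-ratio factors, other low-count filters, the replicate number as a block, the conflicting library in either group, only the compared groups, summed transcripts, scaling without the members, and each library left out.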

Additional observations from a re-analysis of the deposited data

Results flagged for a closer look

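In groups of 4 libraries, a highest or lowest library was picked out when its gap to the next took up more than 0.829 of the group's range. Of 74 such groups examined, 8 met this. The usual chance rate of about 1 in 20 holds for independent groups of normal values. The groups here come from the same libraries and from genes that move together, so the count cannot be set against that rate. LTearly replicate 4 stood above the other LTearly libraries in Rps26 (278 CPM, others 147 to 159) and Rpl36a (345 CPM, others 222 to 237). In wtGMP, replicate 3 stood high in Rps16 (171 CPM, others 124 to 131), replicate 2 low in Rps3 (571 CPM, others 700.1 to 726) and replicate 1 high in Rps6 (492 CPM, others 396 to 411). At the level of a few reads, Rpl10l in LTearly replicate 3 (1.47 CPM), Rpl10l in wtGMP replicate 2 (0.788 CPM) and Rpl3l in wtGMP replicate 2 (1.18 CPM) were above libraries at 0.

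The effects against wtGMP differed between MLL-AF9 groups, by edgeR's test of the difference itself, in these members. Rps26 was lower in LTearly than in LTlate (-1.04) and than in BMTGMP (-0.85). LTearly was also below BMTGMP in Rpl7l1 (-0.72), Rpl10a (-0.67), Rpl12 (-0.67), Rps15 (-0.58) and Rpl4 (-0.53). Without LTearly replicate 3, the count of members called in LTearly against BMTGMP was 0, and without LTearly replicate 1 the count in LTearly against LTlate was 0.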

How the results depend on the processing

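The median log2 fold change of the members was below 0 in each comparison with wtGMP under every alternative run on all members. In LTearly against wtGMP the count of 63 stayed between 54 and 74 with each library left out and between 60 and 68 under the other alternatives on all members. With each library left out in turn, the counts were 22 to 57 for the pooled comparison, 0 to 5 for LTlate, 1 to 5 for BMTGMP, 0 to 12 for LTearly against LTlate, 0 to 27 for LTearly against BMTGMP and 0 for LTlate against BMTGMP. DESeq2 called 17 in LTlate, 6 in BMTGMP and 2 in LTearly against LTlate. Median-ratio factors gave 7 in LTlate and 5 in BMTGMP, and no low-count filter 5 in BMTGMP and 4 in LTearly against LTlate. With only the compared groups fitted, LTlate had 23, BMTGMP 6, and LTearly against LTlate and against BMTGMP 0 each. With summed transcripts the counts were 27 pooled, 2 in LTlate, 1 in BMTGMP, 0 in LTearly against LTlate and 2 in LTearly against BMTGMP. The conflicting library counted as LTlate gave 12 in LTlate and 0 in LTearly against LTlate. With only members whole in at least 90% of libraries, 3 of which were tested, the counts were 2 pooled, 1 each in LTearly, LTlate and BMTGMP, and 0 in LTearly against either group, since fewer members were counted. The replicate block, on numbers that do not pair the samples, gave 31 pooled, 62 in LTearly, 4 in LTlate, 1 in BMTGMP and 0 in LTearly against LTlate or BMTGMP. The cause of the other shifts was not tested.

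The share of counts in LTearly, LTlate, BMTGMP and wtGMP was 1.79%, 2.34%, 2.44% and 2.93% of all rows of the table, and 2.06%, 2.67%, 2.78% and 3.33% with summed transcripts. With a library left out it ran from 2.31% to 2.65%, 3.24% to 3.50%, 3.09% to 3.85% and 4.10% to 4.17%. Of the values of named members under all alternatives, 4034 kept their side of the threshold, 134 lost a call and 80 gained one. In 0 the sign changed with a call in the main or the alternative fit. Sign changes of values called in neither were not counted.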

Other observations

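The library titled LTearly whose column name says LTlate had 2.64% of its counts on the ribosomal protein genes. Its median difference from the wtGMP mean over the 77 subunit genes was -0.61 on log2(CPM + 1), and 73 of them lay below every wtGMP library. Rps26 had 240 CPM, Rps20 161 CPM and Rps27 48.6 CPM there.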
